A study of Mus musculus with 20 samples.

Results

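Voltage-gated sodium and calcium channel genes were examined in cTKO mice and in littermate controls, in neocortex and in hippocampus. The members were all genes whose symbol names a sodium channel α subunit (Scn, a number and a) or β subunit (Scn, a number and b), a calcium channel α1 subunit (Cacna1a to Cacna1s), an α2δ subunit (Cacna2d1 to Cacna2d4) or a calcium channel β subunit (Cacnb1 to Cacnb4), which gave 31 of the 24421 genes in the files. They comprised 9 sodium channel α subunits, 4 sodium channel β subunits, 4 genes of the Cav1 class, 3 of Cav2, 3 of Cav3, 4 α2δ subunits and 4 calcium channel β subunits. The sodium channel gene listed under its older symbol Scn2a1 falls outside this naming rule, and its values are given beside the members without being counted.

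RNA was sequenced from 20 samples, 5 for each genotype and region. The authors collected both regions from 5 cTKO and 5 control mice, 3-month-old males and females on a hybrid background of C57BL/6J and 129. In cTKO mice, the floxed alleles of App, Aplp1 and Aplp2 are deleted by a Cre transgene under the Camk2a promoter, which acts after birth in excitatory neurons of the forebrain, so that other cells of the dissected tissue keep these genes. The controls, labelled as wild type, carry the same floxed alleles of all 3 genes without Cre. A library is named here by its genotype, its region and its number in the labels.

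Voltage-gated sodium channels open when the membrane depolarizes and carry the rising phase of the action potential. Each is formed by a large α subunit that makes the pore and the voltage sensors, accompanied by small β subunits that modulate gating and take part in cell adhesion. Voltage-gated calcium channels are built on a related pore-forming α1 subunit. The Cav1 class gives long-lasting currents at the soma and dendrites, the Cav2 class triggers transmitter release at nerve terminals, and the Cav3 class opens near the resting potential and supports rhythmic burst firing. The α2δ and cytosolic β subunits bring Cav1 and Cav2 channels to the membrane and tune them. In bulk tissue, fewer cells of a type and less RNA per cell cannot be told apart.

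Total counts lay between 12169474 and 25331954 per library. Levels are given in CPM (counts scaled to library size by TMM). On the raw totals, without TMM, a level of 3 counts corresponded to between 0.118 and 0.247 CPM, which covers counting error only. App, Aplp1 and Aplp2 each separated the genotypes within a region without overlap, with App at 336 to 462 CPM in the 10 cTKO libraries against 1371 to 1812 CPM in the 10 controls. The embryonic globin gene Hbb-y stood at 195 CPM in cTKO neocortex 5 and at 119.6 CPM in cTKO hippocampus 4, and at 0.174 to 0.812 CPM in the remaining 18 libraries, so values without these libraries are given where they change a call. The 5 markers of excitatory neurons (6569 to 10410 CPM in a library) and the 6 of inhibitory neurons (718 to 1192 CPM) were present in every library. RNA of the neocortex and of the hippocampus was extracted with different kits, so region and kit cannot be told apart.

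In GRCm38, 4 sodium channel α members lie in a single stretch of chromosome 2 together with Scn2a1. Scn3a spans chr2:65457118-65567627, Scn2a1 chr2:65620771-65767447, Scn1a chr2:66270778-66440840, Scn9a chr2:66480080-66634962 and Scn7a chr2:66673425-66784914. All but Scn2a1 are on the minus strand. Scn7a encodes an atypical channel that responds to extracellular sodium rather than to voltage, Scn9a a channel best known from pain-sensing neurons, and Scn1a a main channel of fast-spiking inhibitory neurons. The bases just upstream of these 3 genes, from the RefSeq promoter windows of GRCm38.p6, are shown because these neighbours had different patterns across genotype and region in the results that follow. They are written 5′ to 3′ on the strand of the gene and end just before the first annotated exon, and capitals mark each match to CANNTG (the E-box) or GGGCGG (the GC box), searched on both strands. The windows are chr2:66784915-66785160 for Scn7a, chr2:66634963-66635212 for Scn9a and chr2:66440841-66441087 for Scn1a.
Scn7a: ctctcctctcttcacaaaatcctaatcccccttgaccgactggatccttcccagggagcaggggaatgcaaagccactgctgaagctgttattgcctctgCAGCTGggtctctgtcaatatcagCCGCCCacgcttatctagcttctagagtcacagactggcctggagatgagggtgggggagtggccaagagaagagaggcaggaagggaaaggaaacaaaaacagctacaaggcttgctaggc
Scn9a: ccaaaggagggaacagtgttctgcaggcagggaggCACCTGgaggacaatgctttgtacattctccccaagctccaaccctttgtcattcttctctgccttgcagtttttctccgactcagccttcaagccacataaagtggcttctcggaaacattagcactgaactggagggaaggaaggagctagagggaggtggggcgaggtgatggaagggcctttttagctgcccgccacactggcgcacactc
Scn1a: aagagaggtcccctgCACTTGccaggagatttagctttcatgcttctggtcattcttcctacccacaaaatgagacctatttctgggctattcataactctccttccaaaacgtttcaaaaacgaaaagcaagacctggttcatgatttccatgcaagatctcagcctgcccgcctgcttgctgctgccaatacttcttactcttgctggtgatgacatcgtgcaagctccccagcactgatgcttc
The Scn7a window held 1 match to CAGCTG, a form of the E-box, and 1 GC box on the reverse strand, while those of Scn9a and Scn1a each held 1 E-box and 0 GC boxes. Among all 32851 windows of 250 bases, 66.2% held an E-box and 32.7% a GC box. GC content was 53.7% for Scn7a, 54.4% for Scn9a and 47.4% for Scn1a, against a median of 52.4% over all windows. The 3 windows held 3, 5 and 4 CpG dinucleotides, in the same order, where the median window held 6. By contrast, the window of Cacna2d2 had 34 CpG dinucleotides and that of Cacna1i had 16. Windows were found for 23 of the 31 members, and these matches are descriptions of letters.

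Levels were compared between genes only as CPM per kb of annotated exon. The most abundant sodium channel α member was Scn8a, the main channel of the mature axon initial segment, at 51.6 ± 1.96 CPM per kb in control neocortex and 36.5 ± 3.46 in control hippocampus (SD, n = 5). Scn2a1 stood at 53.9 ± 5.38 and 39.3 ± 2.35 CPM per kb. The library ranges of these 2 genes overlapped in both regions, and in the neocortex their order turned when the longest transcript replaced the exon union as the length. Scn1a followed at 29.8 ± 3.02 CPM per kb in control neocortex and 13.8 ± 1.007 in control hippocampus. Scn3a, an embryonic and early postnatal channel, was lower again, at 5.54 ± 0.340 and 5.96 ± 0.509 CPM per kb, and did not overlap with Scn1a in either region. Scn7a stood at 0.825 ± 0.127 and 0.576 ± 0.160 CPM per kb and Scn9a at 0.378 ± 0.125 and 0.439 ± 0.0593, in the same order of regions. Their ranges did not overlap in the neocortex (0.672 to 1.025 and 0.208 to 0.528 CPM per kb) but overlapped in the hippocampus (0.425 to 0.807 and 0.341 to 0.487). Only 4 of the 32 genes, Scn1a, Scn2a1, Scn3a and Scn9a, shared any exact stretch of 100 transcript bases with another gene of the group, amounting to 1.17% to 2.88% of their windows. Assignment of reads within such stretches is uncertain.

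Among the sodium channel β subunits, Scn2b, which links covalently to α subunits, stood at 69.7 ± 3.04 CPM per kb in control neocortex and at 69.0 ± 4.54 in control hippocampus. Scn3b, whose product associates non-covalently, changed place with Scn2b between regions, from 33.4 ± 2.46 CPM per kb in the neocortex to 80.7 ± 8.57 in the hippocampus. In the hippocampus the ranges of Scn2b and Scn3b overlapped (63.6 to 73.5 and 71.4 to 91.8 CPM per kb), so their order there was not separated by the libraries. Scn4b stood lowest at 25.2 ± 4.70 CPM per kb in the neocortex, where it reached Scn3b in its highest library, and at 3.06 ± 0.271 in the hippocampus.

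**Figure D1:**
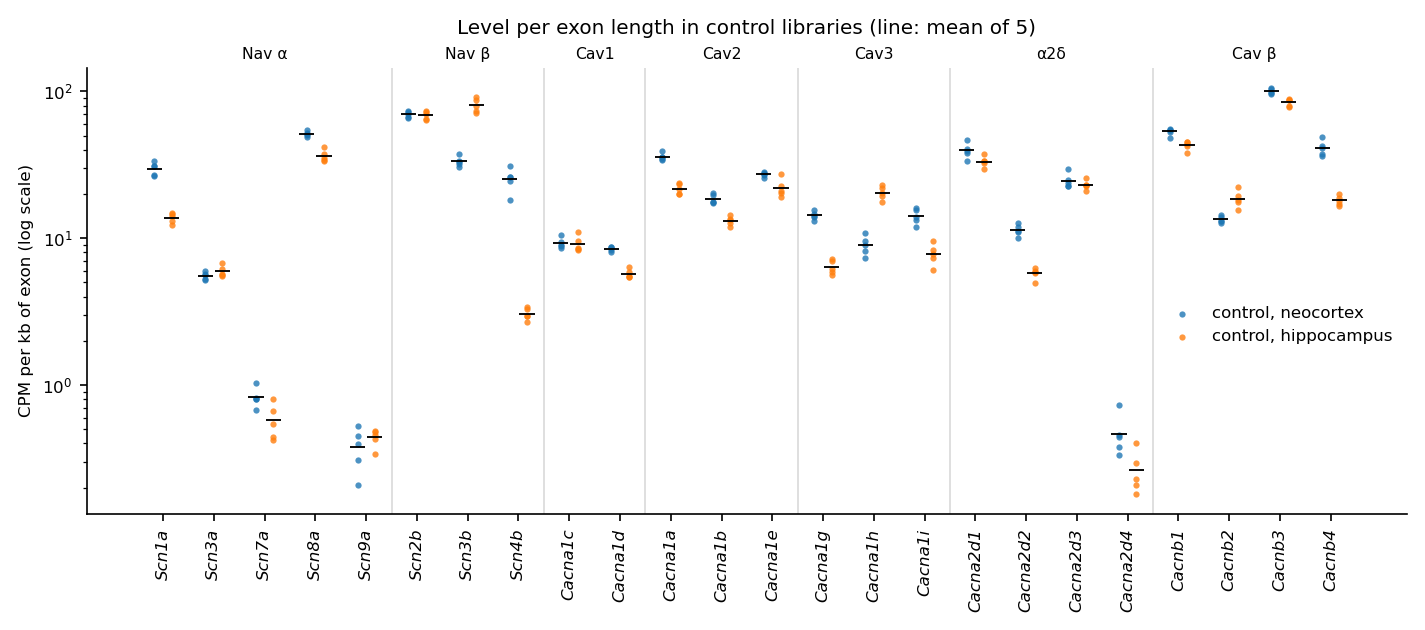
CPM per kb of exon on a log axis for 24 of the 26 members above the filter, by subfamily, in control neocortex (blue) and control hippocampus (orange); points are the 5 libraries and lines their mean. Scn4b shows a wide gap between regions, 25.2 against 3.06 CPM per kb, and Cacnb3 lies at 100.5 and 84.5.

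In the Cav1 class, Cacna1c and Cacna1d, the brain forms, made up most of the signal. Cacna1c stood at 9.24 ± 0.738 CPM per kb and Cacna1d at 8.49 ± 0.253 in control neocortex, where their ranges overlapped, and at 9.18 ± 1.11 and 5.74 ± 0.411 in control hippocampus, where they did not. In the Cav2 class, Cacna1a, the P/Q-type subunit, led in control neocortex at 35.8 ± 1.91 CPM per kb, above Cacna1e, the R-type subunit, at 27.2 ± 0.933, and Cacna1b, the N-type subunit, at 18.5 ± 1.35. These 3 ranges did not overlap. In control hippocampus, Cacna1e at 22.1 ± 3.21 and Cacna1a at 21.7 ± 1.72 CPM per kb overlapped, and Cacna1b remained below both at 13.2 ± 0.982.

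The leading gene of the Cav3 class differed between regions. In control neocortex, Cacna1g and Cacna1i stood at 14.3 ± 0.904 and 14.2 ± 1.698 CPM per kb with overlapping ranges, and Cacna1h at 8.97 ± 1.34 did not reach either. In control hippocampus, Cacna1h led at 20.5 ± 2.13 CPM per kb, above Cacna1i at 7.83 ± 1.299 and Cacna1g at 6.38 ± 0.711, whose ranges overlapped. As a share of the summed CPM per kb of the class, Cacna1h thus made up 23.97% ± 2.96 in control neocortex and 59.1% ± 3.79 in control hippocampus, although the class as a whole summed to 37.4 ± 2.85 and 34.7 ± 3.23 CPM per kb.

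Of the auxiliary calcium channel subunits, Cacna2d1, the high-affinity gabapentin target, led the α2δ genes at 39.7 ± 4.61 CPM per kb in control neocortex and 33.3 ± 2.74 in control hippocampus, followed by Cacna2d3 and Cacna2d2. Cacna2d4, known from the retina, was under 0.727 CPM per kb in every control library. Cacnb3 led the β subunits with 100.5 ± 3.97 CPM per kb in control neocortex and 84.5 ± 4.65 in control hippocampus, above Cacnb1 at 53.4 ± 2.99 and 43.0 ± 3.04. Cacnb4, the subunit lost in the lethargic mouse, stood at 41.2 ± 4.94 CPM per kb in the neocortex, above Cacnb2 at 13.4 ± 0.682, and its highest library (48.7) reached the lowest of Cacnb1 (48.4). In the hippocampus the order of the last 2 turned on the means, with Cacnb2 at 18.6 ± 2.45 and Cacnb4 at 18.1 ± 1.37 CPM per kb, and the ranges overlapped.

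**Figure D2:**
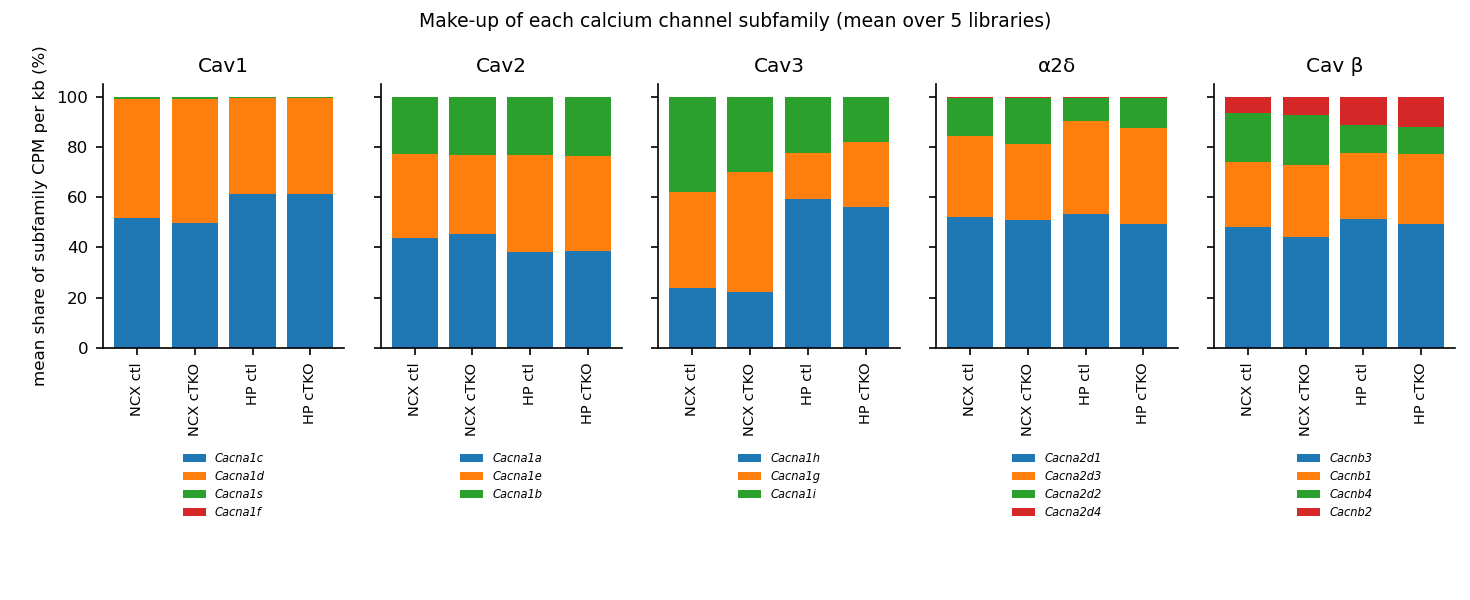
Mean share of each calcium channel member in the summed CPM per kb of its subfamily (%), with 1 bar for each genotype and region; ctl marks controls, NCX the neocortex and HP the hippocampus. In the Cav3 panel, Cacna1h takes 23.97% and 22.4% in the neocortex but 59.1% and 56.0% in the hippocampus.

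The 5 remaining members did not pass the expression filter in any comparison. The skeletal muscle channels Scn4a and Cacna1s had 0 to 5 and 4 to 34 counts per library, the sensory neuron channels Scn10a and Scn11a 0 to 18 and 0 to 30, and the retinal channel Cacna1f 0 to 6. Scn10a had 4 to 18 counts in control neocortex libraries and 5 to 10 in those of cTKO mice, but 0 in all 5 cTKO hippocampus libraries and 0 to 2 in control hippocampus. Cacna1f had 0 counts in all 5 control hippocampus libraries. A count of 0 allows up to 3 counts, which is up to 0.153 CPM on the raw totals of these hippocampal libraries. The 8 muscle markers summed to between 8.65 and 23.3 CPM and the 5 markers of peripheral sensory neurons to between 1.799 and 4.75 CPM in a library.

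The regions were first compared in controls, to ask how the channel genes differ between neocortex and hippocampus in mice that keep the APP family. Of the 26 members tested, 20 differed at a false discovery rate (FDR) under 0.05 in edgeR (quasi-likelihood F, adjusted over all genes by Benjamini-Hochberg), beside 59.1% of all 13832 genes. The split by direction was uneven, with 3 members higher in the hippocampus, where 29.8% of all genes were higher, and 17 lower, where 29.2% of all genes were lower. The median log2 fold change of hippocampus over neocortex was -0.41 over the members and 0.012 over all genes. The groups did not overlap for 16 members, beside 44.0% of all genes.

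**Figure D3:**
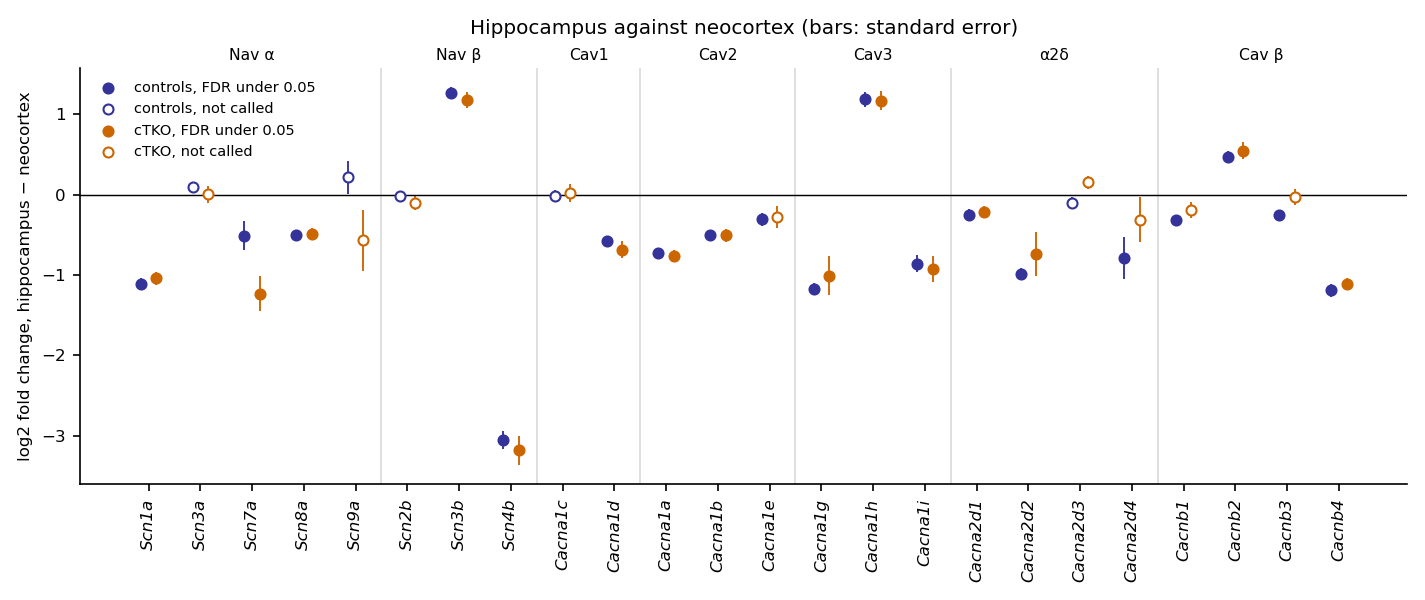
Log2 fold change of hippocampus over neocortex for 24 of the 26 members in controls (blue) and cTKO mice (orange), with standard errors; filled points passed an FDR of 0.05. Most points lie below 0, with Scn4b at -3.05 and -3.18, while Scn3b, Cacna1h and Cacnb2 lie above 0 in both genotypes.

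Of the sodium channel α members, Scn1a, Scn8a and Scn7a fell from neocortex to hippocampus in controls. Scn1a had 286, 263, 265, 225 and 230 CPM in control neocortex 1 to 5 and 121, 106, 112, 126 and 124 CPM in control hippocampus 1 to 5. Every hippocampal library was thus below every neocortical library, and the log2 fold change was -1.11 (SE 0.070, edgeR FDR = 4.21e-09). Scn8a fell by 0.51 on the log2 scale (SE 0.059, edgeR FDR = 3.28e-06), again without overlap, and Scn2a1 by 0.46 (SE 0.066, edgeR FDR = 2.34e-05). Scn7a fell by 0.51 (SE 0.179, edgeR FDR = 0.0222) with overlapping groups, and it was no longer called without control hippocampus 4 (FDR = 0.0586), control hippocampus 5 (0.0509) or control neocortex 3 (0.0643). The chromosome 2 neighbours Scn3a and Scn9a were not called, with log2 fold changes of 0.098 (95% interval -0.025 to 0.221) and 0.216 (-0.185 to 0.618).

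The sodium channel β subunits went in opposite directions. Scn4b, whose product supports resurgent sodium current and is known from striatal and Purkinje neurons, had 155, 123, 130.2, 130.1 and 90.1 CPM in control neocortex 1 to 5 and 14.8, 13.5, 14.8, 16.9 and 16.3 CPM in control hippocampus 1 to 5. This was the largest difference of any member, 8.30-fold lower in the hippocampus (log2 fold change -3.05, SE 0.117, edgeR FDR = 1.797e-11). The 4 striatal markers Drd2, Adora2a, Gpr6 and Rgs9 also summed higher in control neocortex, to between 71.2 and 125 CPM against 20.8 to 24.4 CPM in control hippocampus, and their part in the Scn4b result was not tested. Scn3b had 144, 139, 151, 169 and 151 CPM in control neocortex 1 to 5 against 335, 323, 358, 393 and 415 CPM in control hippocampus 1 to 5. Here all hippocampal libraries were the higher ones, by 2.41-fold (log2 fold change 1.27, SE 0.072, edgeR FDR = 1.36e-09). Scn2b did not pass, with a log2 fold change of -0.021 (95% interval -0.124 to 0.081). Scn2b and Scn4b are neighbours on chromosome 9, with region differences of -0.021 and -3.05.

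All 3 Cav2 members and 1 of the 2 tested Cav1 members were lower in the hippocampus. Cacna1a lay at 270.4 to 309 CPM in control neocortex and at 158 to 187 CPM in control hippocampus, a log2 fold change of -0.73 (SE 0.059, edgeR FDR = 6.49e-08). Cacna1b fell by 0.50 (SE 0.060, FDR = 4.51e-06), Cacna1e by 0.31 (SE 0.077, FDR = 0.00302) and Cacna1d by 0.57 (SE 0.053, FDR = 2.51e-07) on the same scale. Cacna1c, the other Cav1 gene of the brain, had a log2 fold change of -0.016 (95% interval -0.165 to 0.133).

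The Cav3 members split. Cacna1h had 60.1, 74.6, 67.1, 88.8 and 78.9 CPM in control neocortex 1 to 5 and 146, 166, 159, 189 and 182 CPM in control hippocampus 1 to 5, so that it was 2.27-fold higher in the hippocampus without overlap (log2 fold change 1.18, SE 0.096, edgeR FDR = 6.25e-08). Cacna1g moved the other way, from 121, 119, 111, 125 and 132 CPM to 59.4, 49.7, 47.7, 52.8 and 61.5 CPM. This gave a log2 fold change of -1.17 (SE 0.072, edgeR FDR = 2.96e-09). Cacna1i fell by 0.86 (SE 0.104, edgeR FDR = 4.23e-06), also without overlap.

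All 4 calcium channel β subunits passed, 3 lower and Cacnb2 higher in the hippocampus. Cacnb4 fell from 315 to 424 CPM in control neocortex to 145 to 174 CPM in control hippocampus (log2 fold change -1.19, SE 0.076, edgeR FDR = 4.62e-09). Cacnb2 rose from 61.3 to 69.3 CPM to 75.1 to 107 CPM (log2 fold change 0.47, SE 0.077, edgeR FDR = 9.70e-05). Cacnb1 and Cacnb3 fell by 0.32 and 0.26. Of the α2δ subunits, Cacna2d2 fell by 0.99 (SE 0.071, edgeR FDR = 1.59e-08), from 58.9 to 73.5 CPM to 29.1 to 36.7 CPM. Cacna2d1 and Cacna2d4 fell by 0.26 and 0.79 with overlapping groups, and Cacna2d4, at 1.06 to 4.22 CPM, was no longer called without control neocortex 3 (FDR = 0.0569). Cacna2d3 was not called, at -0.10 (95% interval -0.252 to 0.043).

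The same contrast in cTKO mice used none of the control libraries. It called 16 members, 3 higher and 13 lower, beside 41.3% of all 13846 genes, with 20.2% of all genes higher and 21.1% lower. All 16 were among the 20 called in controls, which is 100% of the cTKO calls and 80% of the control calls, and all had the same direction in both. Scn4b, Scn3b, Cacna1h and Cacnb4 had log2 fold changes of -3.18, 1.18, 1.17 and -1.11 in cTKO mice, beside -3.05, 1.27, 1.18 and -1.19 in controls. The members called in controls alone were Cacna1e, Cacna2d4, Cacnb1 and Cacnb3, and whether the difference between regions itself changed with genotype is tested under the interaction. Without cTKO neocortex 5 and cTKO hippocampus 4, which held Hbb-y, 14 members were called, and Cacna2d1 (FDR = 0.0881) and Cacna2d2 (FDR = 0.0662) were lost. Each of these 2 genes also lost its call when any of 8 of the 10 libraries was left out, with FDR = 0.0593 to 0.1001 for Cacna2d1 and 0.0539 to 0.114 for Cacna2d2. Striatal markers summed to 106.5, 188, 108, 89.9 and 111 CPM in cTKO neocortex 1 to 5, where Scn4b had 87.0, 151, 131, 74.4 and 111.5 CPM. There the sum and Scn4b were both highest in library 2 and both lowest in library 4. In control neocortex 1 to 5 the striatal markers summed to 100.6, 105, 94.8, 125 and 71.2 CPM. The sum and Scn4b were both lowest in control library 5, while Scn4b was highest in library 1 and the sum in library 4. Whether they are linked was not tested.

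The genotypes were then compared within each region, to ask what the loss of the APP family in excitatory neurons did to the channel genes. In the neocortex, Scn7a alone was called, higher in cTKO mice, so that 1 of 26 members passed an FDR of 0.05 beside 0.188% of all 13843 genes. At an unadjusted p under 0.05, 8 members were found, 2 higher and 6 lower, beside 10.4% of all genes (5.57% higher and 4.86% lower). The median log2 fold change of cTKO over control was -0.044 over the members and 0.009 over all genes. Of the 26 members, 19 had a negative value. An exact permutation p under 0.05 was found for 6 members, beside 9.60% of all genes.

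**Figure D4:**
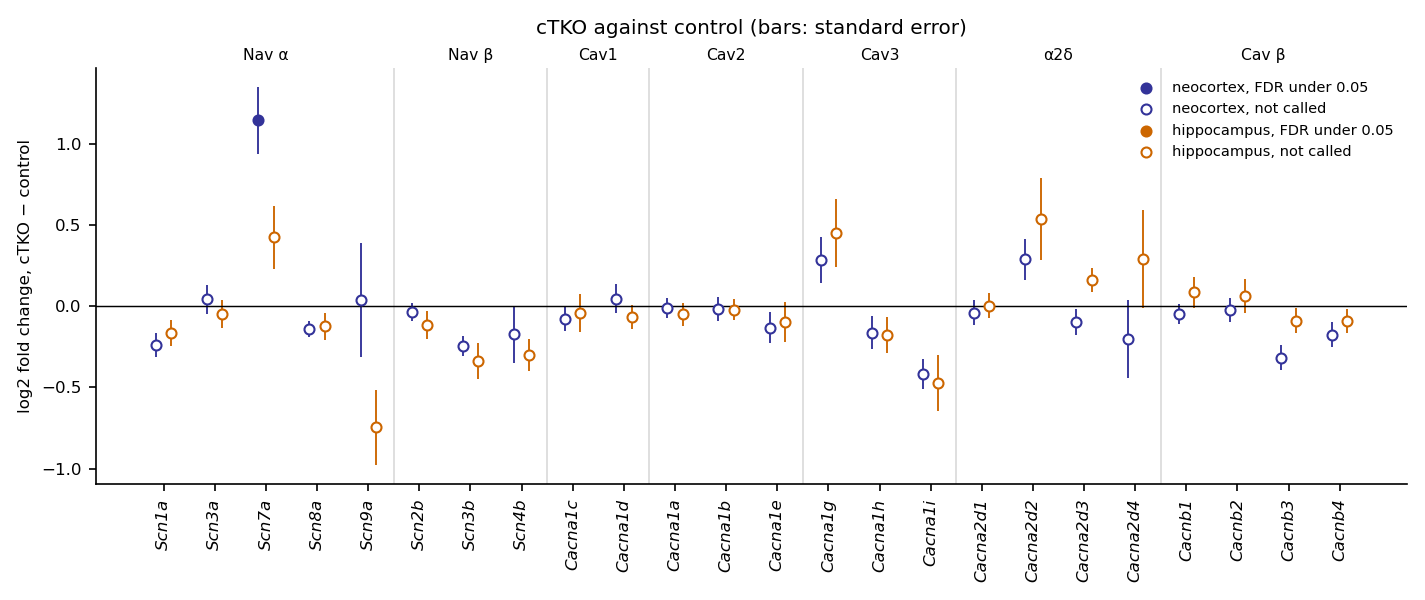
Log2 fold change of cTKO over control for 24 of the 26 members in the neocortex (blue) and the hippocampus (orange), with standard errors; filled points passed an FDR of 0.05. Scn7a in the neocortex is the only filled point, at 1.15, and Cacna1i lies below 0 in both regions at -0.42 and -0.47.

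Scn7a had 6.03, 5.90, 7.52, 5.88 and 4.93 CPM in control neocortex 1 to 5 and 16.6, 14.9, 7.31, 16.7 and 10.4 CPM in cTKO neocortex 1 to 5. Libraries 1, 2 and 4 of the cTKO group were highest, library 5 was above every control, and library 3 lay within the range of the controls. The gene was 2.21-fold higher in cTKO mice (log2 fold change 1.15, SE 0.206, edgeR FDR = 0.0433), with a two-sided exact permutation p of 0.0159 for its log2 CPM. The call depended on single libraries: FDR was 0.0888 to 0.135 when any of the 5 controls or cTKO 1, 2 or 4 was left out, 0.00221 without cTKO 3 and 0.0137 without cTKO 5, the library with Hbb-y, while the log2 fold change stayed between 1.04 and 1.296. Blocking on library number also ended the call (log2 fold change 1.11, FDR = 0.0823). The 4 markers of the meninges (Dcn, Lum, Col1a1 and Col1a2) had a median log2 fold change of 0.90 in the same comparison. All 4 were higher at an unadjusted edgeR p under 0.05, and none passed the FDR threshold. They summed to 79.4, 75.4, 57.9, 78.0 and 207 CPM in cTKO neocortex 1 to 5, and to 41.1 to 64.6 CPM in controls. Of the cTKO libraries, library 3 had the lowest sum and the lowest Scn7a (7.31 CPM). Library 5, with the highest sum, had 10.4 CPM of Scn7a, the fourth highest of the 5 values. Their part in the Scn7a result was not tested.

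Another 3 members had an edgeR FDR above 0.05 but passed it by DESeq2, by edgeR's likelihood ratio test and by its exact test. The share of all genes called by these 3 tests is not given here, so these passes cannot be set against it. Cacna1i, a Cav3 subunit, had 153, 117, 130.0, 136 and 157 CPM in control neocortex 1 to 5 and 103, 106, 119, 87.8 and 101 CPM in cTKO neocortex 1 to 5, where only cTKO 3 reached the lowest control. Its log2 fold change was -0.42 (SE 0.091, edgeR FDR = 0.0984, exact permutation p = 0.0159, FDR = 0.00330 by DESeq2). Cacnb3, the most abundant calcium channel β subunit, had 286 to 312 CPM in controls and 217, 242, 287, 214 and 228 CPM in cTKO 1 to 5, with cTKO 3 alone inside the control range. Its log2 fold change was -0.32 (SE 0.076, edgeR FDR = 0.130). The 5 markers of excitatory neurons summed to 6576, 7187, 7695, 6641 and 6569 CPM in cTKO neocortex 1 to 5 and to 7390 to 8170 CPM in controls, again with cTKO 3 alone inside the control range. Of these markers, 3 had a positive and 2 a negative log2 fold change (median 0.010), led downwards by Camk2a at -0.32, none passed the FDR threshold, and their part in the lower channel genes was not tested. Without cTKO neocortex 3 both genes passed, with FDR = 0.0255 for Cacna1i and 0.00779 for Cacnb3. Scn3b had 139 to 169 CPM in controls and 119 to 133 CPM in cTKO mice, so the groups did not overlap, and its log2 fold change was -0.25 (SE 0.061, edgeR FDR = 0.135, exact permutation p = 0.00794, the smallest possible).

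The other members under an unadjusted p of 0.05 in the neocortex had smaller differences. Scn8a had 605 to 670.1 CPM in controls and 549.7 to 603 CPM in cTKO mice, which did not overlap (log2 fold change -0.14, SE 0.049, edgeR FDR = 0.333). Scn3b and Scn8a were the 2 members without overlap, beside 2.39% of all genes. Scn1a was at -0.24 (SE 0.073, FDR = 0.251), Cacnb4 at -0.18 (SE 0.076, FDR = 0.433) and Cacna2d2 at 0.29 (SE 0.124, FDR = 0.435). Cacna2d2 had 110.2 CPM in cTKO neocortex 1 and 61.3 to 82.8 CPM in the remaining cTKO libraries, against 58.9 to 73.5 CPM in controls. Scn2a1 was at -0.15 (SE 0.078, FDR = 0.522). None of the 3 Cav2 members was under this p, with intervals from -0.131 to 0.106 for Cacna1a, -0.164 to 0.126 for Cacna1b and -0.318 to 0.053 for Cacna1e.

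In the hippocampus, 0 members passed an FDR of 0.05 by edgeR's quasi-likelihood test, by DESeq2, by the likelihood ratio test or by the exact test, beside 0.489% of all 13702 genes. At an unadjusted p under 0.05, 6 members were found, 4 lower in cTKO mice, beside 5.88% of all genes, and 2 higher, beside 6.13%. The median log2 fold change was -0.048 over the members and 0.005 over all genes. Exact permutation tests of single members gave 5 with a p under 0.05, beside 10.6% of all genes, and between 3 and 7 when libraries were left out in turn.

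Scn9a had 3.42, 4.58, 4.88, 4.32 and 4.82 CPM in control hippocampus 1 to 5 and 3.12, 3.09, 1.19, 2.84 and 2.84 CPM in cTKO hippocampus 1 to 5. All cTKO libraries were below all controls, the only member without overlap there, beside 3.01% of all genes, and cTKO 3 was lower than the rest. The log2 fold change was -0.75 (SE 0.232, edgeR FDR = 0.220, exact permutation p = 0.00794). In the neocortex the same gene was spread widely, over 1.25 to 6.02 CPM in cTKO mice and 2.08 to 5.29 CPM in controls, with a log2 fold change of 0.040 (95% interval -0.651 to 0.731).

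Scn3b had 335, 323, 358, 393 and 415 CPM in control hippocampus and 212, 325, 300.4, 298 and 303 CPM in cTKO hippocampus, where cTKO 2 alone reached the controls and cTKO 1 was far below the rest. Its log2 fold change was -0.34 (SE 0.110, edgeR FDR = 0.241). Scn4b had 13.5 to 16.9 CPM in controls and 10.4 to 13.5 CPM in cTKO mice, with a log2 fold change of -0.30 (SE 0.097, FDR = 0.235). Cacna1i, at 81.5, 71.7, 59.6, 75.8 and 94.2 CPM in controls, stood at 51.7, 37.5, 58.9, 47.2 and 79.4 CPM in cTKO mice, so that cTKO 5 lay inside the control range (log2 fold change -0.47, SE 0.171, FDR = 0.293). Cacna2d3 was at 0.16 (SE 0.072, FDR = 0.391) and Scn7a at 0.43 (SE 0.193, FDR = 0.406). Scn7a ranged from 4.54 to 6.62 CPM in cTKO mice and from 3.12 to 5.92 CPM in control hippocampus, and the groups overlapped. The markers of excitatory neurons summed to 7984 to 9852 CPM in cTKO hippocampus and to 9094 to 10410 CPM in controls, with 3 of 5 negative log2 fold changes, and their part in the lower genes was not tested.

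Cacna1g and Cacna2d2 had a single high cTKO library in the hippocampus. Cacna1g had 47.7 to 61.5 CPM in control hippocampus and 130.1, 61.7, 65.0, 58.0 and 54.0 CPM in cTKO hippocampus 1 to 5. Cacna2d2 likewise had 29.1 to 36.7 CPM in controls and 95.4, 37.6, 40.6, 32.0 and 37.2 CPM in cTKO 1 to 5. In cTKO 1, Cacna1g thus lay within the range of control neocortex and Cacna2d2 above it (58.9 to 73.5 CPM), while cTKO 2 to 5 were close to the hippocampal controls. Their log2 fold changes of 0.45 (FDR = 0.418) and 0.53 (FDR = 0.425) became 0.143 and 0.134 without cTKO hippocampus 1. Cacna1g was also highest in cTKO neocortex 1, at 210.2 CPM, beside 114, 115, 133 and 163 CPM in the remaining cTKO libraries and 111 to 132 CPM in controls.

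**Figure D5:**
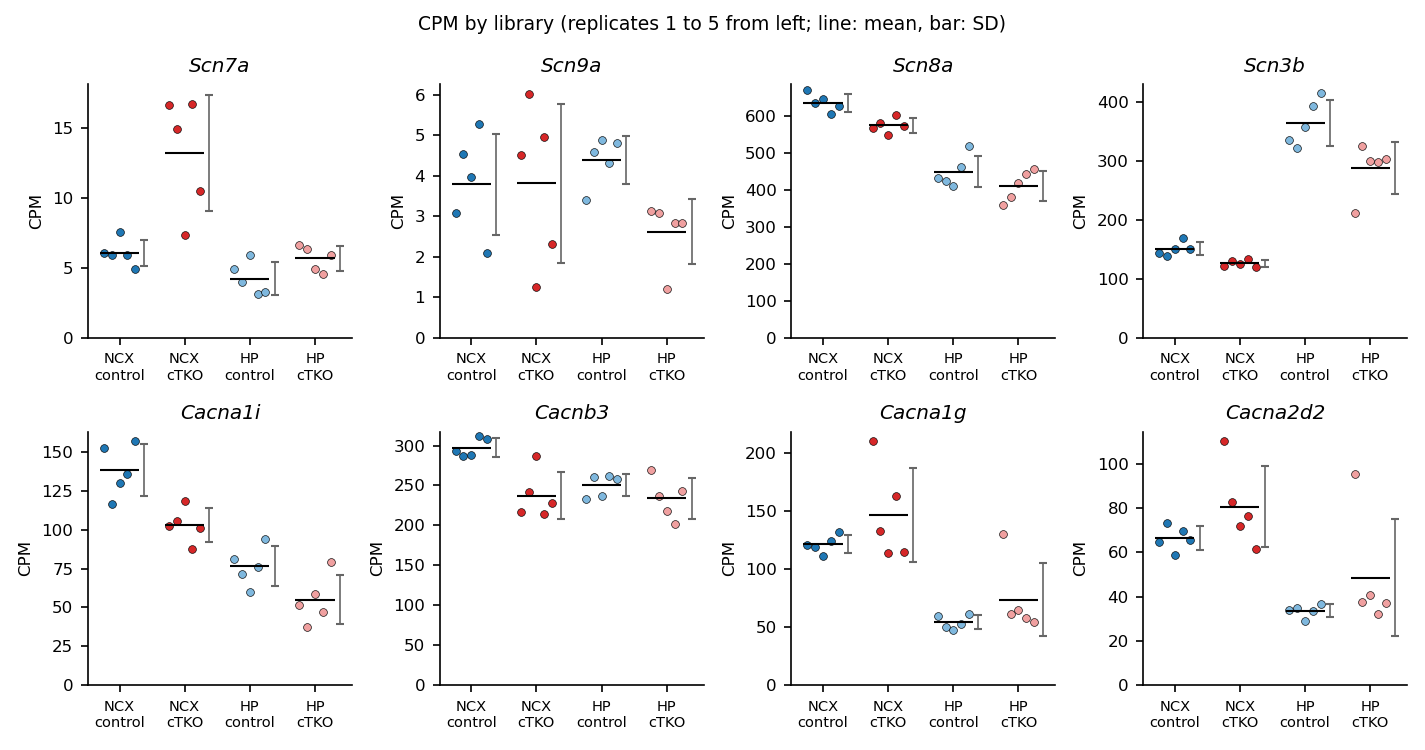
CPM of 8 members by library in control and cTKO neocortex (NCX) and hippocampus (HP), with library numbers 1 to 5 from left to right in each group, the mean as a line and the SD as a bar; axes start at 0. Scn7a in cTKO neocortex spans 7.31 to 16.7 CPM, and cTKO hippocampus 1 stands apart in Cacna1g and Cacna2d2 at 130.1 and 95.4 CPM.

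Whether the effect of genotype differed between the regions was tested as an interaction in a single fit of all 20 libraries. Of the 26 members, 0 passed an FDR of 0.05, beside 0.0564% of all 14192 genes, and 2 had an unadjusted p under 0.05, beside 3.75% of all genes. Other tools called 0 members as well, and the share of all genes they called is not given here. Scn7a had an interaction of -0.71 (SE 0.296, edgeR FDR = 0.9999), so its rise in the neocortex was not shown to differ from that in the hippocampus. Cacna2d3 had 0.27 (SE 0.114, edgeR FDR = 0.9999). For the 4 members called between regions in controls alone, the interaction was 0.041 (95% interval -0.281 to 0.363) for Cacna1e, 0.503 (-0.274 to 1.281) for Cacna2d4, 0.140 (-0.094 to 0.374) for Cacnb1 and 0.232 (0.012 to 0.453) for Cacnb3. These intervals are normal ones and a little narrower than the quasi-likelihood test, by which the unadjusted p of Cacnb3 was 0.0516. The interval was wide for the rarer genes, as for Scn9a from -1.671 to 0.117.

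A list of 50 genes whose products bind or regulate these channels was examined beside the members, of which 45 were tested in the neocortex and in the regions of controls, and 43 in the hippocampus. Between the regions of controls, 37 of 45 were called, 12 higher and 25 lower in the hippocampus, beside 59.1% of all genes called, 29.8% higher and 29.2% lower. The median log2 fold change was -0.35 over the list and 0.012 over all genes. All 6 active zone proteins that bind Cav2 or β subunits were lower, led by the SNARE protein Stx1a at -1.80 (SE 0.056, edgeR FDR = 2.57e-12). Stx1a ranged over 280 to 333 CPM in neocortex and 82.8 to 93.0 CPM in control hippocampus. The TARP gene Cacng3 and the calcium sensor gene Cabp1 followed at -1.43 and -1.46, and none of the 9 scaffold genes of the axon initial segment and node was higher, with 6 lower. Higher in the hippocampus were Fgf13, a factor that binds the sodium channel C-terminus, at 0.95 (SE 0.051, FDR = 6.57e-10), Cacng8, another TARP gene, at 1.25 (SE 0.069), and Cachd1, an α2δ-like gene, at 1.52. The 4 Fgf genes of this kind were divided evenly, with 2 higher and 2 lower. In cTKO mice, 31 of 43 were called between regions, 11 higher and 20 lower, beside 41.3% of all genes called, 20.2% higher and 21.1% lower. Of the 9 scaffold genes, 5 were called lower there and 1 higher.

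Between genotypes, Rims1 was the only gene of this list called by edgeR's quasi-likelihood test, and results of the other tests are not given for the list. Rims1, an active zone scaffold that binds Cav2 channels and their β subunits, had 285, 283, 274, 289 and 270.4 CPM in control neocortex 1 to 5 and 188, 211, 188, 187 and 216 CPM in cTKO neocortex 1 to 5. The groups were far apart, with a log2 fold change of -0.49 (SE 0.058, edgeR FDR = 0.00183). In the hippocampus, Rims1 had 154 to 186 CPM in controls and 111 to 146 CPM in cTKO mice, again without overlap. The log2 fold change there was -0.36 (SE 0.078, edgeR FDR = 0.0709). The paper's own edgeR results list Rims1 as lower in both regions. It reported more genes at an FDR under 0.05 than the 26 called here in the neocortex and 67 in the hippocampus. Rimbp2, which encodes another active zone protein and is named here after its values were seen, had 87.2 to 95.7 CPM in controls and 97.1 to 145 CPM in cTKO hippocampus, higher without overlap, at 0.45 (SE 0.101, edgeR FDR = 0.0861). In the neocortex it was at 0.31 (SE 0.083, edgeR FDR = 0.187), with overlap. Of the 6 active zone genes, 3 did not overlap between genotypes in the hippocampus, beside 3.01% of all genes. At an unadjusted edgeR p under 0.05 there, 2 were lower, beside 5.88% of all genes, and 1 was higher, beside 6.13%. The Cav2 channels themselves were not called in either region. Their log2 fold changes ran from -0.13 to -0.012 in the neocortex (SE up to 0.095) and from -0.099 to -0.023 in the hippocampus (SE up to 0.122). A fall within these errors is not excluded. In the interaction, 0 of the 45 tested passed.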

How the data were processed

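The authors extracted poly-A RNA, sequenced 100-base single-end reads on Illumina HiSeq instruments, mapped them to mm10 with STAR 2.5.4a and counted reads per gene with HTSeq. The deposited values are raw counts for each library, without normalization. The annotation and the strand setting of the counting are not given in the sources used here. Without strand, reads of a gene and of an antisense partner cannot be told apart, and 18 members overlap another annotated gene.

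Counts were analysed with edgeR 4.0.16 in R 4.3.3. A gene entered a fit when at least 5 of its libraries exceeded 1 CPM. TMM scaled the library sizes, and the quasi-likelihood test gave FDR over all genes tested. The 95% intervals are normal intervals from the SE. Exact permutation tests used log2 CPM with a prior count of 2. With 5 libraries against 5 the smallest possible p is 0.00794. The replicates are mice. Both regions were collected from the same 5 cTKO and 5 control mice, so libraries of different regions are not independent. Each genotype contrast used the 10 libraries of its region, and each region contrast the 10 of its genotype. The region contrasts and the interaction were fitted without pairing, as the sources do not say what the library number marks.

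Exon lengths and positions are from GENCODE M21 (GRCm38), and promoter windows from RefSeq. Members and gene lists were chosen with earlier results of these data known. Members were named when under an unadjusted p of 0.05 for genotype or interaction, when leading or moving most in their subfamily, when changing rank between regions or when failing the filter. Of the list of binding partners, genes called by genotype and the 3 of smallest p in each direction between regions were named. Alternatives were DESeq2 1.42.0, other edgeR tests, scalings and filters, a replicate block, Xist as a covariate, and libraries left out. Leaving out both cTKO libraries numbered 1 was added after seeing the data. Procedures were tested on simulated data. Counts cover all members tested, and the values of 2 members are not reported here. Figures were drawn with matplotlib 3.10.9.

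Across regions, the deviations of control libraries with the same number correlated at 0.124 to 0.334, with 5 of 5 pairs over 0.1. In cTKO mice these correlations ran from -0.102 to 0.371, with only 3 of 5 pairs over 0.1. The sources do not say what the number marks. Xist was high or low alike in both regions for all 5 control and all 5 cTKO numbers.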

Additional observations from a re-analysis of the deposited data

Results flagged for a closer look

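Within each group of 5 libraries, the highest and the lowest value of each tested member were compared with the rest by Dixon's ratio on log2 CPM. Of 104 such groups, 6 held a library that stood apart, and chance gives about 1 in 20. In 3 of them it was cTKO hippocampus 1. That library had 130.1 CPM of Cacna1g where the others of the group had 54.0 to 65.0, 95.4 CPM of Cacna2d2 where the others had 32.0 to 40.6, and 212 CPM of Scn3b where the others had 298 to 325. cTKO hippocampus 3 had 1.19 CPM of Scn9a beside 2.84 to 3.12 in the others. cTKO neocortex 3 had 276 CPM of Cacna1e beside 378 to 420.5 in the others, and cTKO neocortex 4 had 1.48 CPM of Cacna2d4 beside 2.31 to 2.74. None of the flagged libraries was a control.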

How the results depend on the processing

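For the neocortex, the count of members called between genotypes was 1 in the main fit. It rose to 4 with DESeq2's Wald test, edgeR's likelihood ratio test and edgeR's exact test (Scn7a with Cacna1i, Cacnb3 and Scn3b). The share of all genes called by these other tests is not given here. The count of members fell to 0 with a replicate block (Scn7a FDR = 0.0823). It was 0 to 3 with libraries left out in turn. Whether the number pairs these libraries is unsettled: it was not taken to, as only 3 of 5 pairs had a correlation over 0.1 (0.180 to 0.211, each closest to its own number), and the remaining 2 had 0.004 and 0.043. In the hippocampus and for the interaction it stayed at 0 to 0. Members called between regions stayed at 18 to 21 in controls and 14 to 16 in cTKO mice with a library left out, and the block changed neither count. Members with an exact permutation p under 0.05 were 5 to 7 in the neocortex and 3 to 7 in the hippocampus. No result for a single member turned direction while called. Of 3024 refits of single members and Scn2a1, 2972 kept their side of the threshold, 38 lost it and 14 gained it. The causes were not tested. At 1 to 5 CPM, as for Scn9a and Cacna2d4, depth limits the precision. Leaving out the library with Hbb-y in a genotype contrast equals leaving out cTKO neocortex 5 or cTKO hippocampus 4. Without both cTKO libraries numbered 1, chosen after seeing the data, 15 members were called between regions of cTKO mice and 0 in the interaction.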

Other observations

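Scn11a, which did not pass the expression filter, had 30, 7, 2, 20 and 3 counts in cTKO neocortex 1 to 5 and 1 to 4 counts in the control neocortex libraries. In the hippocampus it had 11 counts in cTKO 1 and 0 to 2 counts in each of the other 9 libraries. In the cTKO neocortex, libraries 1, 2 and 4 had the 3 highest values of Scn7a (16.6, 14.9 and 16.7 CPM), Cacna1g (210.2, 133 and 163 CPM), Cacna2d2 (110.2, 82.8 and 76.4 CPM) and Scn11a. Libraries 1, 2 and 4 are the cTKO libraries with low Xist. This grouping was noticed after the values were seen, and no test was made of it.

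The 6 markers of inhibitory neurons summed to 1192, 1166, 1141, 1152 and 915 CPM in cTKO neocortex 1 to 5 and to 891 to 1023 CPM in control neocortex, so that cTKO 5, the library with Hbb-y, alone lay inside the control range. Of the 6 genes, 4 had a positive and 2 a negative log2 fold change there, from -0.35 to 0.46, and 0 passed the FDR threshold of edgeR's test, with 2 at an unadjusted p under 0.05. In the hippocampus they summed to 794 to 1021 CPM in cTKO mice and to 718 to 905 CPM in controls, and the groups overlapped.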
